A study of Mus musculus with 10 samples.

Results

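Of 208851 regions of accessible chromatin obtained by merging the overlapping peaks of 10 mouse ATAC-seq peak lists, 9878 carried a peak in all 10 lists and lay within 1000 bp of the start or end of a protein-coding gene. These always open regions at gene ends were chosen by those 2 criteria, so their presence at every stage is the criterion itself and is not a finding. Across all merged regions, 7.35% (15359) had a peak in all 10 lists, and among the 21044 regions within 1000 bp of a gene end the share was 46.9%. The other 5481 always open regions lay farther from any protein-coding gene end and serve here as the comparison set. A gene is called served when at least 1 of the 9878 regions lies within 1000 bp of either of its ends. The regions served 11017 of the 21887 protein-coding genes of the RefSeq table (50.3%).

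A promoter is the stretch of DNA around the start of a gene where general transcription factors and RNA polymerase II assemble. In mammals the promoters of broadly expressed genes usually sit in CpG islands, stretches in which the CpG dinucleotide has not been depleted, and their nucleosomes are displaced in most cell types. Promoters of tissue-restricted genes more often lack a CpG island and are opened by cell-type-specific factors. ATAC-seq reads such sites out through the Tn5 transposase, which inserts sequencing adapters into DNA that is not wrapped in nucleosomes.

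The study followed the reprogramming of mouse embryonic fibroblasts to pluripotency, with 5 stages, 2 libraries per stage and the same batch name for all. The fibroblasts (MEF) carried M2rtTA, an activator that responds to doxycycline, at Rosa26 and the OKSM cassette (Oct4, Klf4, Sox2 and Myc) at Col1a1, and were grown unsorted in MEF medium without doxycycline. Cells of the same genotype were kept in ESC medium with 1 ug/ml doxycycline and 50 ug/ml ascorbic acid for 3, 6 or 9 days. DAY3 cells were unsorted, and DAY6 and DAY9 cells were sorted for the surface marker SSEA1. The embryonic stem cells (ESC) were unsorted cells of the line V6.5, grown on irradiated feeder cells in ESC medium, without the cassette. The labels give all 10 libraries the strain C57BL/6 x 129. Sorting went with DAY6 and DAY9, and only ESC lacked the cassette, so neither can be told apart from the stage.

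The lists held 45497 to 88980 peaks, of which 11.8% to 23.2% lay in the 9878 regions. At these regions the pair of DAY3 libraries had a noise ratio of 1.30 and the DAY9 pair one of 1.36, where 1 stands for chance alone, against 2.74 to 3.64 within the other stages. Each of the 2 pairs was averaged into 1 sample, so that tests ran on 8 samples. MEF replicate 2 had the highest background pileup (8.32 against 2.33 to 7.37 in the others) and the lowest folds. Of 876 gene-end regions that missed the criterion by 1 list, 350 (39.95%) lacked a peak only in MEF replicate 2.

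The promoter sequences of 5 regions are shown because these regions, among named regions with a gene start, ranked highest in the list in which they ranked lowest. They are RefSeq promoters of the GRCm38.p6 build, each running 5′ to 3′ on the gene's own strand from 250 bp before the start to 50 bp after it. Capitals mark exact matches on either strand to motif letters: CCAAT or its complement (the box bound by NFY), CCGGAAG (ETS factors), GGGCGG (the GC box of SP and KLF factors) and GGGNGTGG (a KLF4-type box); matches to different motifs may overlap. Ghitm encodes a mitochondrial inner membrane protein, Hjurp the chaperone that loads the centromeric histone CENP-A, Aasdhppt a phosphopantetheinyl transferase and Stt3a a catalytic subunit of oligosaccharyltransferase. Gm20594 is an unnamed gene model.
Gm20594, chr6:79817781-79818080, plus strand: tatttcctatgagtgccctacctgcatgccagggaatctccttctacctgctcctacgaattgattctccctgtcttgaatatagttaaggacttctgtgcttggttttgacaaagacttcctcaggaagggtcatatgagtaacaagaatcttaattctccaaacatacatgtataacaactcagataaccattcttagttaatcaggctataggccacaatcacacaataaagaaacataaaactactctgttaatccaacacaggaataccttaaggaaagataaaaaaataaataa
Ghitm, chr14:37135273-37135572, minus strand: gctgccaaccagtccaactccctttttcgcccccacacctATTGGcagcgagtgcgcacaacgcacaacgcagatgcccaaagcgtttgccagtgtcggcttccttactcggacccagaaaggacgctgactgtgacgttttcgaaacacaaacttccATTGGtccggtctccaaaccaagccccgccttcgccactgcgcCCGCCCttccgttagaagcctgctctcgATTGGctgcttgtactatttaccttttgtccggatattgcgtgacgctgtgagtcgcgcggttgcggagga
Hjurp, chr1:88277530-88277829, minus strand: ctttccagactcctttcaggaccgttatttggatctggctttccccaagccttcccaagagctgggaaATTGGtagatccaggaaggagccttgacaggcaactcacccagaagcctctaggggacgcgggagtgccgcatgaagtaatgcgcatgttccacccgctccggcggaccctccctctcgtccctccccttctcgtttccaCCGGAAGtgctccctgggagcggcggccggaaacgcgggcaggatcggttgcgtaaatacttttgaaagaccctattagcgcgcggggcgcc
Aasdhppt, chr9:4309445-4309744, minus strand: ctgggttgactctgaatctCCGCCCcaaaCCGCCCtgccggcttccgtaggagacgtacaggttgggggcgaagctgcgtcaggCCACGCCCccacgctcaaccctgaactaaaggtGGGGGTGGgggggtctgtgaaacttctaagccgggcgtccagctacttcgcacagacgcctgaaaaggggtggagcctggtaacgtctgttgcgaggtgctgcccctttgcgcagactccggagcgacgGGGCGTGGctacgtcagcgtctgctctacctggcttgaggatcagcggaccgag
Stt3a, chr9:36767573-36767872, minus strand: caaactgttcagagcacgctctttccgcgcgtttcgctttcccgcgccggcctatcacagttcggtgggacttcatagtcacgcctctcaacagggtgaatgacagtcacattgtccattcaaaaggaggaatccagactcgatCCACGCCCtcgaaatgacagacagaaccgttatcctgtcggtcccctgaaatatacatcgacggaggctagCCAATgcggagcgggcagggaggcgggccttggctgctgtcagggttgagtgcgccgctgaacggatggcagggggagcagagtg
Positions below count from the start of the gene to the first letter of the match, with upstream negative. The Ghitm promoter held 3 NFY boxes, at -210, -92 and -21, with a GC box at -49. The Hjurp promoter held an NFY box at -182 and an ETS match at -42, and the Stt3a promoter a KLF4-type box at -106 and an NFY box at -35. The Aasdhppt promoter had no NFY box but 2 GC boxes and 3 KLF4-type boxes. The Gm20594 promoter held none of the 14 motifs searched, had a GC content of 36.3% and a ratio of observed to expected CpG of 0.105, against 0.793 to 1.06 in the other 4.

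These regions were chosen for a high score rank in every list, and their folds are a description. The deposited fold, the authors' linear ratio of summit height to background, was 31.1 and 30.7 in the MEF libraries, 31.4 and 31.9 at DAY3, 31.7 and 26.001 at DAY6, 28.4 and 28.4 at DAY9, and 27.04 and 25.8 in ESC at the Ghitm region (964 bp). At the Stt3a region (921 bp) it was 17.7 and 17.1 in MEF, 17.2 and 16.05 at DAY3, 19.3 and 20.7 at DAY6, 21.4 and 20.2 at DAY9, and 22.2 and 20.2 in ESC. At Ghitm both MEF and both DAY3 values lay above all DAY9 and ESC values, with DAY6 split, whereas at Stt3a they lay below all 6 later ones. These folds are not scaled between lists, whose median over the 9878 regions ran from 6.35 to 11.2. By rank percentile among those regions, Stt3a stood at 98.0, 99.5, 99.6, 99.7 and 99.7 from MEF to ESC. Ghitm stood at 99.96 to 99.97. Gm20594 (549 bp) had a fold between 33.4 and 34.2 in all 10 lists, the smallest spread of any region, with a highest-to-lowest ratio of 1.03 against a median of 2.03 over the 9878 regions. Lars2, the mitochondrial leucyl-tRNA synthetase, and Wls, which carries Wnt ligands to the cell surface, also ranked among the 8 highest, with folds of 30.1 to 39.4 and 31.8 to 35.7. Both regions were narrow (534 and 544 bp) and lay 363 and 616 bp from the far end of the gene, not at the start. The near-constant fold of Gm20594 did not follow the scale of the lists. Whether the reads at Gm20594, Lars2 and Wls map uniquely to these places was not tested. Hmgcs1, the cytosolic HMG-CoA synthase of the mevalonate pathway, had folds of 15.5 to 19.4.

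The regions at gene ends were wider than the other always open regions. The merged regions had a median width of 1224 bp (384 to 3593 bp, with the middle 50% between 1020 and 1495 bp), against 978 bp for the always open regions away from gene ends and 572 bp for the gene-end regions not open in every list. Together they covered 12.7 Mb, 10.0% of the length of all merged regions. Merging favours width in regions with many peaks, so the peaks of each list were also measured. The median peak at gene ends was 885 and 771 bp wide in the MEF libraries, 835 and 843 at DAY3, 929 and 835 at DAY6, 918 and 915 at DAY9, and 795 and 905 in ESC. Away from gene ends it was 661 and 540 bp in MEF, 595 and 599 at DAY3, 692 and 611 at DAY6, 680 and 683 at DAY9, and 577 and 646 in ESC. In every list the gene-end peaks were the wider ones, by 234 bp ± 12.9 (SD, n = 8; exact paired permutation test, two-sided, p = 0.00781, the smallest that 8 pairs allow, adjusted over 8 tests 0.0152). The difference fell to 143 bp when only the highest-scoring 50% of each list was used.

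**Figure D1:**
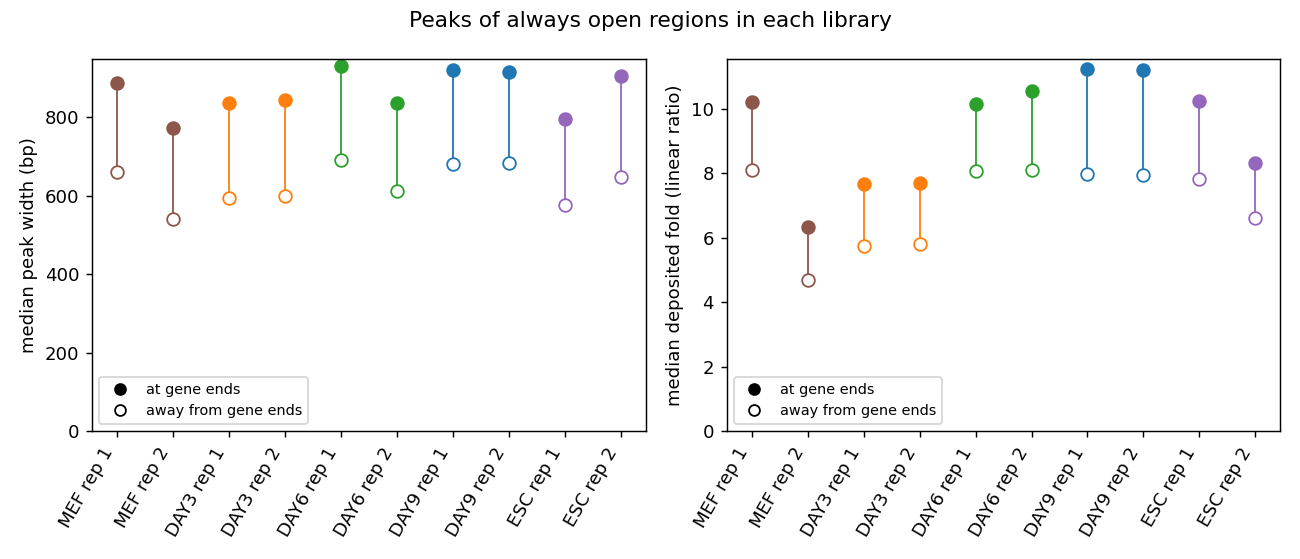
Median peak width (left, in bp) and median deposited fold (right, a linear ratio) in each of the 10 libraries, for always open regions at gene ends (filled circles) and away from them (open circles). In all 10 libraries the filled circle lies above the open one, for width by 218 to 259 bp.

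The regions at gene ends also had the higher fold. The fold of a region in a list is the highest among its peaks there. More than 1 peak in a list was found at 5.38% to 8.75% of the regions at gene ends. Their median fold was 10.2 and 6.35 in MEF, 7.67 and 7.71 at DAY3, 10.2 and 10.6 at DAY6, 11.2 and 11.2 at DAY9, and 10.2 and 8.32 in ESC, against 4.71 to 8.10 away from gene ends. Only the ratio within a list was tested. The log2 ratio was 0.39 ± 0.058 (SD, n = 8) and above 0 in 8 of 8 samples (exact paired permutation test, two-sided, p = 0.00781, adjusted 0.0152). It was 0.36 among regions of 773 to 1874 bp, the width range that both sets share, and fell to 0.24 in lists cut to equal length and to 0.12 in the highest-scoring 50%. A difference between stages in this ratio was not detected (exact permutation test, p = 0.436, adjusted 0.498).

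The share of the strongest peaks that lay in these regions differed between stages. Of the 10000 highest-scoring peaks of a list, 54.3% and 51.3% lay in them in MEF, 59.6% and 60.1% at DAY3, 57.4% and 58.2% at DAY6, 58.9% and 59.0% at DAY9, and 47.9% and 47.3% in ESC. Both ESC libraries lay below all others, and both MEF libraries lay between ESC and the 3 reprogramming stages. Stage held 97.1% of the sum of squares (exact permutation test over 420 arrangements, p = 0.00952, adjusted 0.0152). ESC also had the longest lists (86585 and 88980 peaks) and DAY3 the shortest. Cutting all lists to the length of the shortest kept the same 10000 peaks in each and changed only the regions, to 8588. The exact permutation p was again 0.00952. That cut evens out list length in the choice of regions, not in the ranking of peaks. With the strongest 5000 peaks the same exact test gave p = 0.0714. In bulk samples, a weaker peak from fewer open cells and one from less open DNA per cell cannot be told apart.

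Most of the regions with known strand sat on a gene start. Of the 9878, 8935 (90.5%) touched a gene end and 171 lay over 800 bp from one. Just inside the limit were the regions of Trim47 and Dlk2 (1000 bp each) and Nxpe3 (999 bp), with median folds of 6.29, 5.63 and 11.2. Just outside were those of Kank2 (1001 bp), Adgrl2 and Adam19 (1003 bp each), with folds of 3.22 to 16.7, 3.36 to 4.62 and 3.95 to 9.01. RefSeq strand was at hand for 17492 genes: of these, 8704 (49.8%) were served at the start, 895 (5.12%) at the far end and 246 (1.41%) at the far end alone. By region, 7872 lay at a start, 206 at far ends only, and 1800 near genes whose strand was not in the table used. Of the 206 end-only regions, 19 (9.22%) lay within 1000 bp of another listed start of any gene, and of the always open regions away from gene ends 1366 (24.9%) did. Counting every listed start would add 674 genes, 7.89% of the unserved genes with a listed start.

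Regions at starts had higher folds than those at far ends only. The median fold at starts was 10.4 and 6.54 in MEF, 7.84 and 7.88 at DAY3, 10.3 and 10.8 at DAY6, 11.5 and 11.5 at DAY9, and 10.5 and 8.49 in ESC. At far ends it was 7.71 and 4.10, 4.88 and 5.01, 7.10 and 6.91, 7.14 and 7.001, and 7.21 and 5.84 in the same order. In every list the starts were higher, by 0.59 ± 0.092 on the log2 scale (SD, n = 8; exact paired permutation test, two-sided, p = 0.00781, adjusted 0.0152), and by 0.30 in the highest-scoring 50%. End-only regions were also narrower, with a median of 961 bp. Single regions departed from this order: of the 4 with the best rank, Lars2 and Wls were end-only.

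The peaks centred just downstream of the start, taken as the gene's outermost RefSeq coordinate. Other starts of the same gene lie downstream of it, and their part in the shift was not tested. In 5229 regions at the start of only 1 protein-coding gene, with 1 peak per list, the midpoint lay 61 to 86 bp downstream in the median of each library. Regions with further listed starts, of that gene or of non-coding genes, were not left out. Between 74.8% and 77.2% of midpoints lay within 250 bp of the start, and 29.9% to 35.9% lay upstream. For 1 region the midpoint varied over the 10 lists by 172 bp in the median.

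**Figure D2:**
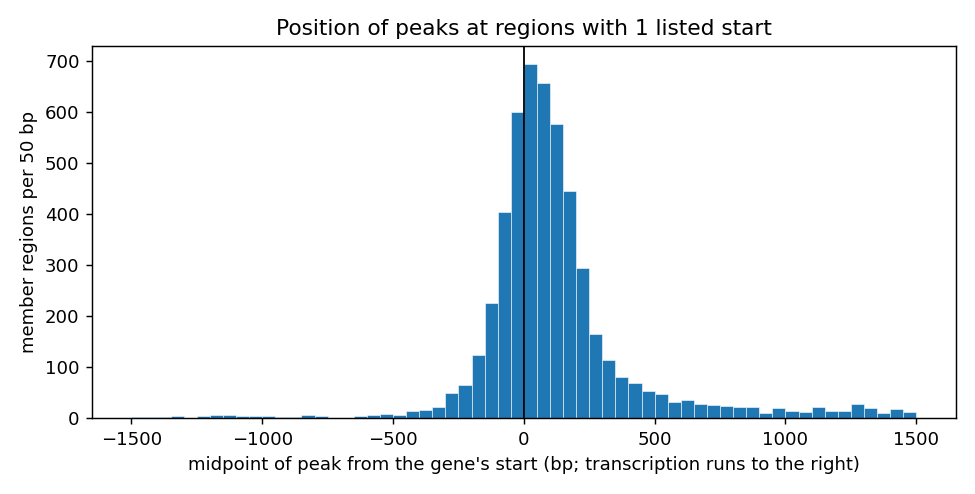
Histogram of the distance from the gene's outermost start to the midpoint of the peak, in bp. Shown are the regions at the start of only 1 protein-coding gene, with 1 peak in every list. Bars count regions per 50 bp, and the vertical line marks the start. The bulk lies within 250 bp of the start, shifted to the transcribed side.

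Some of the regions served several genes. One gene was within reach of 8114 regions, 2 genes of 1714, 3 genes of 48, and 4 and 5 genes of 1 region each. The region with 5 genes, chr17:47687653-47689328, served Gm20517, Usp49, Tomm6, Frs3 and Prickle4, which include a ubiquitin protease and a subunit of the mitochondrial import receptor. Its fold was 11.9 and 5.96 in MEF, 7.56 and 6.98 at DAY3, 9.36 and 11.5 at DAY6, 11.9 and 12.4 at DAY9, and 14.9 and 9.02 in ESC. The region with 4 genes served Eme2, Mrps34, Nme3 and Mapk8ip3 (fold 2.53 to 10.8), and the X-linked region of Cmc4, Mtcp1 and Brcc3, a subunit of deubiquitinating complexes, had folds of 9.87 to 19.02. Conversely, 10353 genes had 1 region, 651 had 2, 12 had 3, and 9030025P20Rik had 4.

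Of the regions with strand, 942 lay at the starts of at least 2 genes and 6930 at 1. Most of the pairs were divergent, the arrangement in which 2 genes are read in opposite directions from a shared promoter: 559 pairs (60.4%), with a median of 104 bp between the starts. The highest divergent folds were at Rpgrip1l and Fto, at Ormdl2 and Sarnp, at Tctn3 and Entpd1, at Cetn2 and Nsdhl on X, and at Hspa14 and Cdnf, with median folds of 20.9, 20.4, 19.4, 19.1 and 18.98. These 5 were chosen for their values. Rpgrip1l and Tctn3 are proteins of the ciliary transition zone, and Cetn2 is a centrin of the centriole. Median folds at shared starts were 7.17 to 12.2 over the libraries, against 6.44 to 11.4 at single starts. The shared ones were higher in 8 of 8 samples, by 0.11 ± 0.025 on the log2 scale (SD, n = 8; exact paired permutation test, two-sided, p = 0.00781, adjusted 0.0152). That small difference fell to 0.03 when a peak had to cover 50% of the region, and to 0.03 in the highest-scoring 50%.

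The share of genes served differed between gene lists. The lists of gene families were chosen with earlier results of these data known, and their counts are a description to be read against the 50.3% of all genes. The 18 housekeeping lists together had 628 of 695 genes served (90.4%), the 11 tissue-specific lists 48 of 1910 (2.51%), and genes in no list 9527 of 17880 (53.3%). Most of the tissue-specific genes were olfactory (0 of 1106 served) and vomeronasal (2 of 353) receptor genes. The highest share of a single tissue-specific list was 34.4%, for voltage-gated potassium channels. Unnamed Gm and Rik models were served in 386 of 1748 cases (22.1%).

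**Figure D3:**
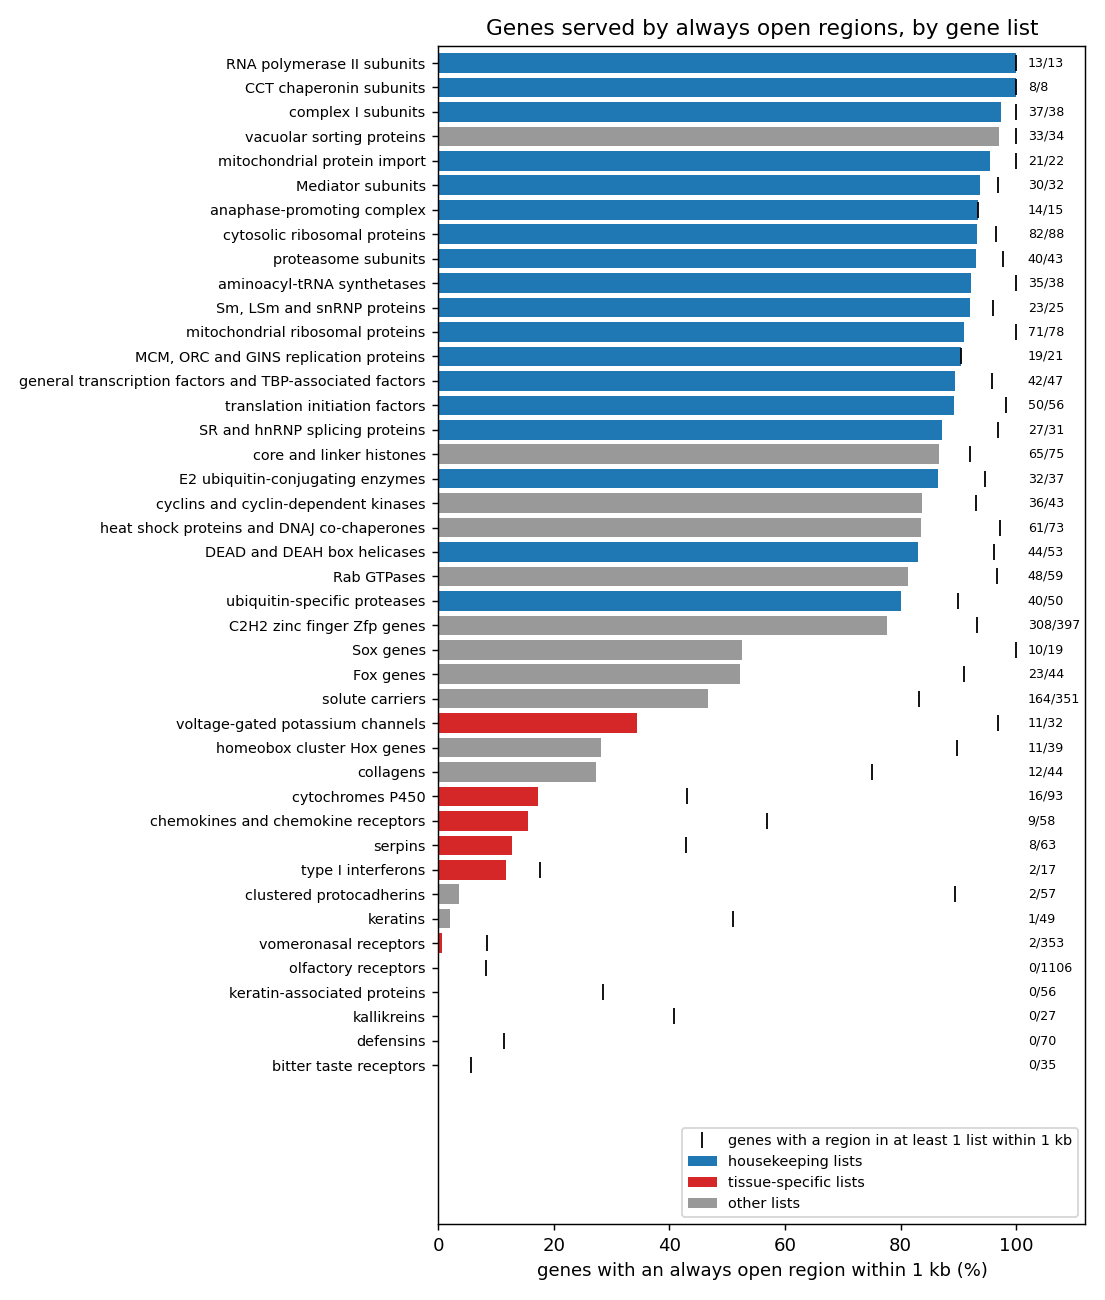
Share of the protein-coding genes of each list (in %) with an always open region within 1 kb, as bars, with the counts at the right. Blue bars are housekeeping lists, red bars tissue-specific lists and grey bars other lists, and ticks mark genes with a region in at least 1 list. The housekeeping bars lie at 80.0% or above, and the tissue-specific bars at 34.4% or below.

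In transcription, all 13 RNA polymerase II subunits were served, as were 30 of 32 subunits of Mediator, the complex that links transcription factors to the polymerase (Med9 and Med10 were not). Of the general transcription factors and TBP-associated factors, 42 of 47 were served, and the 5 others were Gtf2a1l, Gtf2ird2, Gtf2i, Taf1 and Taf7l. Taf7l and Gtf2a1l are germ-cell paralogs of Taf7 and Gtf2a1. Med19 had a fold of 22.4 and 16.1 in MEF, 17.2 and 15.96 at DAY3, 17.8 and 16.3 at DAY6, 18.3 and 17.98 at DAY9, and 22.0 and 17.8 in ESC. Polr2a, the largest subunit of the polymerase, had 8.78 and 5.96, 6.12 and 6.05, 8.69 and 8.01, 9.14 and 9.27, and 6.72 and 6.25. Med19 was therefore in the upper 5% of the 9878 regions at every stage, and Polr2a was below their middle. The splicing lists had 27 of 31 SR and hnRNP genes (not Hnrnph1, Hnrnpf, Hnrnpl and Srsf12) and 23 of 25 Sm, LSm and snRNP genes (not Lsm7 and Snrpn). Of the DEAD and DEAH box helicases, which remodel RNA, 44 of 53 were served, led by Ddx24, Ddx10 and Dhx29.

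In translation, 82 of 88 cytosolic and 71 of 78 mitochondrial ribosomal protein genes were served, with the highest folds at Rpl37, Rpl15 and Rpl27 and at Mrps14, Mrpl17 and Mrpl18. Fold percentile is used here for the rank of a region's fold among the 9878 in a list, from 0 to 100. The cytosolic ribosomal regions had median percentiles of 53.3, 55.1, 54.6, 48.3 and 35.8 in order from MEF to ESC. They thus lay near the middle until DAY9 and lower in ESC, a description with no test. Rpl37 was above the 93rd percentile at every stage, with folds of 12.7 to 19.7. Eif-named genes, the translation initiation factors and the kinases that regulate them, were served in 50 of 56 cases, led by Eif2ak3, Eif3f and Eif2a. Aminoacyl-tRNA synthetases, which charge tRNAs, were served in 35 of 38, the others being Eprs, Aars2 and Tars2, each of which had an always open region at another listed start.

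In protein turnover, 40 of 43 proteasome subunit genes were served, led by Psma2, Psmc4 and Psma5. The 3 others were Psma6 and the tissue-specific Psma8 of testis and Psmb11 of thymus. All 8 subunits of the CCT chaperonin, which folds actin and tubulin, were served, with a median percentile of 79.4 in MEF and 64.0 to 68.8 later. The anaphase-promoting complex had 14 of 15 (not Anapc15), the E2 ubiquitin-conjugating enzymes 32 of 37, and the ubiquitin-specific proteases 40 of 50. Heat shock proteins and their DNAJ co-chaperones had 61 of 73, led by Hspa14, Dnajb11 and Dnajc3.

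In organelles and trafficking, 37 of 38 subunits of respiratory complex I and 21 of 22 genes of mitochondrial protein import (not Tomm20l) were served. Vacuolar sorting genes were served in 33 of 34 (not Vps25) and Rab GTPases, the switches of vesicle transport, in 48 of 59. The Rab regions had median percentiles of 66.2 to 74.7, with the lowest value in MEF and the highest in ESC. Rab5c, Rab18 and Rab30 led them.

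In the cell cycle, 19 of 21 MCM, ORC and GINS genes, which license and start DNA replication, were served, and Orc1 and Orc4 had an always open region at another listed start. Their median percentiles of 79.4, 86.4, 76.0, 83.1 and 78.7 from MEF to ESC were the highest of the housekeeping lists from DAY3 on, and CCT was level with them in MEF at 79.4. Mcm3, a subunit of the replicative helicase, had folds of 26.3 and 15.1 in MEF, 16.8 and 15.97 at DAY3, 18.6 and 20.7 at DAY6, 21.6 and 21.2 at DAY9, and 21.9 and 19.4 in ESC. It was above the 99th percentile throughout. Histone genes stood at the other end: 65 of 75 were served by 49 regions, whose median percentiles were 19.5, 18.8, 11.1, 12.3 and 17.5. H2az2, a variant made outside replication, led that list with folds of 12.4 to 16.5. Cyclins and cyclin-dependent kinases had 36 of 43, led by Ccna2, Ccng1 and Cdk20.

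Among transcription factor families the share served ranged widely. C2H2 zinc finger genes named Zfp were served in 308 of 397 cases (77.6%), led by Zfp691, Zfp760 and Zfp869, with median percentiles of 51.3 to 59.8. Fox genes had 23 of 44 (52.3%) and Sox genes 10 of 19 (52.6%), near the 50.3% of all genes. The Hox genes, which set position along the body axis, had 11 of 39 (28.2%), although 35 of those 39 had a region in at least 1 list. The Hox regions had median percentiles of 12.2 to 15.2, the Sox regions 15.0 to 20.2 and the Fox regions 21.7 to 30.7. Hoxa5 had folds of 6.40 and 4.20 in MEF, 6.73 and 6.35 at DAY3, 9.73 and 10.0 at DAY6, 10.3 and 10.9 at DAY9, and 4.89 and 3.11 in ESC. Its DAY6 and DAY9 folds lay above all others, but folds are not scaled between lists. The median fold of the always open regions at gene ends was also higher at DAY6 (10.2 and 10.6) and DAY9 (11.2 and 11.2) than at DAY3 (7.67 and 7.71). It was 10.2 and 6.35 in MEF, and 10.2 and 8.32 in ESC. The order of the Hoxa5 folds is therefore a description, and a change beyond the scale of the lists was not tested.

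Genes of single tissues were rarely served. None of 1106 olfactory receptor, 70 defensin, 56 keratin-associated protein, 35 bitter taste receptor and 27 kallikrein genes was served, and 91 of the olfactory receptor genes had a region in at least 1 list. Of 353 vomeronasal receptor genes, Vmn1r4 and Vmn2r29 were served, each at its start, with folds of 9.54 to 15.0 and 7.61 to 13.4. Keratins had 1 of 49 (Krt10, at its far end), collagens 12 of 44, serpins 8 of 63, cytochromes P450 16 of 93, chemokines and their receptors 9 of 58, and voltage-gated potassium channels 11 of 32. The clustered protocadherins, which give neurons their surface identity, had 2 of 57 (Pcdhac2 and Pcdhgc3). Both are C-type genes. Solute carriers, a family of both general and tissue-specific transporters, had 164 of 351 (46.7%).

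Of 17 type I interferon genes, the cytokines of antiviral defence, Ifna13 and Ifnz were served. The region at the far end of Ifna13 had folds of 16.8 and 15.7 in MEF, 14.5 and 14.5 at DAY3, 7.24 and 7.93 at DAY6, 8.24 and 8.15 at DAY9, and 21.7 and 16.5 in ESC. The 4 DAY6 and DAY9 values, from the sorted stages, lay below all 6 others, and the percentile was 22.6 and 24.0 there against 96.6 or more elsewhere. The Ifnz region varied less, with folds of 3.25 to 7.502.

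Markers of the cell types that the cultures could hold were checked in the same way. Of 20 pluripotency markers, 8 were served (Pou5f1, Sox2, Klf2, Klf4, Klf5, Tbx3, Tfcp2l1 and Utf1), and the number with a peak in both libraries of a stage was 8, 9, 13, 16 and 17 in order from MEF to ESC. Of 20 fibroblast markers, 9 were served (Col1a2, Col5a2, Fn1, Twist1, Snai2, Zeb2, Cdh2, Vim and S100a4), with 18, 15, 15, 14 and 13 having a peak at the same stages. Epithelial markers were served in 1 of 14 (Tjp3), with peaks at 1, 4, 13, 13 and 12 of them. Blood and immune markers were served in 1 of 14 (Spi1), endothelial markers in 1 of 10 (Flt1), neural markers in 4 of 12 (Map2, Syt1, Snap25 and Tubb3) and muscle markers in 1 of 12 (Ckm, at its far end). The number with a peak in both libraries, in order from MEF to ESC, was 2, 6, 5, 6 and 4 for blood markers, 1, 4, 5, 5 and 5 for endothelial markers, 5, 5, 8, 9 and 9 for neural markers and 2, 2, 3, 6 and 6 for muscle markers. The counts were thus higher in ESC than in MEF for each of these cell type lists but the fibroblast one. Textbook reference genes had 16, 16, 15, 16 and 16 of 18, and chromatin looping and cohesin genes 10, 10, 10, 10 and 11 of 14. Whether the lists differed in this was not tested. The ESC peak lists were also longer (86585 and 88980 peaks) than the MEF ones (74444 and 64295). The same count over all genes was not made, so a rise at markers cannot be told apart here from a general one.

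The marker regions in the set were mostly weak. The fibroblast regions had median percentiles of 38.2, 42.3, 13.5, 7.93 and 14.1 from MEF to ESC. Twist1, a transcription factor of mesenchyme, had folds of 8.61 and 5.74 in MEF, 6.88 and 7.35 at DAY3, 4.55 and 5.65 at DAY6, 4.20 and 3.62 at DAY9, and 4.303 and 4.71 in ESC. Both MEF and both DAY3 values lay above the 6 later ones; this was chosen after the values were seen and not tested. Klf5, a factor of pluripotent and epithelial cells, had folds of 12.2 and 9.08 in MEF, 12.9 and 11.1 at DAY3, 14.1 and 17.0 at DAY6, 16.9 and 17.0 at DAY9, and 16.5 and 12.9 in ESC. The regions at Pou5f1, Sox2 and Klf4 had median folds of 3.76, 5.49 and 6.22. The cassette holds copies of these 3 genes in every stage but ESC, and its reads cannot be told apart here from those of the genes themselves.

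The regions differed among themselves in how steady they were. Spearman's rho of the folds over the 9878 regions was 0.829 to 0.960 between libraries of a stage and 0.681 to 0.896 between stages, as a description across regions that share each library's depth. The difference between the highest and the lowest stage in fold percentile had a median of 22.5 points. Differences between the libraries of a stage enter this value, and their part in it was not tested. It was under 10 points at 1190 regions (12.05%) and at least 50 points at 457 (4.63%). Of those 457, ESC was the highest stage at 156 and MEF at 106, and MEF was the lowest at 165 and ESC at 107. The same shares over all 9878 regions are not given here. MEF and ESC were also the stages with the highest noise ratios between their libraries (2.99 and 3.64). At 110 regions ESC lay at least 50 points above MEF, and at 55 regions the reverse held.

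The 6 regions with the largest differences were at Calb1, 4930564D02Rik, Mtmr7, Bche, Trpm3 and Kcnt2. Calb1, the calcium-binding protein calbindin, had folds of 7.02 and 3.65 in MEF, 3.01 and 3.19 at DAY3, 13.7 and 13.6 at DAY6, 12.6 and 11.3 at DAY9, and 17.2 and 15.3 in ESC. Mtmr7, a myotubularin-related phosphatase, had 3.62 and 3.00, 5.05 and 6.15, 13.5 and 15.6, 15.1 and 13.6, and 17.2 and 13.6 in the same order. At both, all 4 early values lay below all 6 from DAY6 on. The ion channel genes Trpm3 and Kcnt2 were lowest in MEF replicate 2 (both 2.57) and highest in ESC replicate 1 (17.5 and 19.8). Bche, which encodes butyrylcholinesterase, had 14.4 and 5.69 in MEF, 5.14 to 11.1 at DAY3 to DAY9, and 19.2 and 13.5 in ESC. These 6 were chosen for their spread, so the differences are a description with no test.

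The widest regions were at Cdk6 (3593 bp), LOC108167694 and Gm20783 (3439 bp), Nrp1 (3387 bp) and Erbb4 (3191 bp), with median folds of 3.805, 5.12, 4.66 and 4.75, all below the 9.43 of the median region. Cdk6 is a kinase of the G1 phase, Nrp1 a co-receptor for semaphorins and VEGF, and Erbb4 a neuregulin receptor. The narrowest were at Gzmk (384 bp, median fold 4.27), Gm10710 (397 bp, 14.7), Slc52a3 (420 bp, 3.77) and Oasl1 (439 bp, 20.7). Oasl1, an interferon-induced gene, had folds of 14.7 to 23.9 and the region lay 411 bp from its start.

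Sequence composition is given as a description over the 17492 RefSeq promoters of 300 bp. The 8268 promoters that overlapped one of the regions had a median GC content of 62.0% and a median observed-to-expected CpG ratio of 0.804, and 82.0% had a ratio of 0.6 or more. The 3482 promoters with only other regions had 58.0%, 0.538 and 43.7%, and the 5742 promoters without any region 45.3%, 0.162 and 2.84%. Ratios under 0.3 were found at 212 (2.56%) of the 8268. Among these CpG-poor promoters, chosen for their folds after Gm20594, were Enox2 on X (fold 14.9 to 20.1), Gstm7, a glutathione transferase (3.87 to 21.9), and Fancl, a ubiquitin ligase of the Fanconi pathway (10.2 to 19.1).

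Motif letters were searched on both strands of the same 300 bp. CCGGAAG was held by 20.7% of the 8268 promoters and 11.9% of all, GGGCGG by 70.9% and 46.3%, the NRF1 letters GCATGCGC by 6.29% and 3.61%, the YY1 letters AAGATGGCG by 3.64% and 1.92%, and the CRE letters TGACGTCA by 3.79% and 2.33%. TATAAA was held by 5.81% against 13.3% of all, and the AP-1 letters TGANTCA by 3.75% against 7.03%. With only promoters of a CpG ratio of 0.6 or more, CCGGAAG was held by 22.4% of those in the regions and 9.86% of the others, while GGGCGG was held by 75.3% and 69.4%. In the same CpG-rich promoters TATAAA was held by 5.32% and 7.96%, and the AP-1 letters by 3.30% and 3.92%. CCAAT, found in 41.3% and 39.2% of promoters, differed little at large but stood at 39.9% against 29.7% within the CpG-rich ones. These are matches of letters, and no binding was measured.

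Within the regions, the NFY letters followed the fold. The 6606 regions with a single start and a promoter sequence were split into 4 equal groups by median fold, and CCAAT was held by 29.1%, 33.1%, 43.3% and 58.8% of the promoters from the lowest group to the highest. CCGGAAG rose in share from 14.0% through 17.6% and 20.5% to 22.8%, and TATAAA stood at 7.26%, 6.60%, 5.69% and 4.60%. GC content was 62.0% in the lower 3 groups and 61.7% in the highest, and the median region was 1292 bp wide in the lowest group and 1123 bp in the highest. The 2714 regions with CCAAT had a higher median fold than the 3892 without it in 10 of 10 libraries, by 0.20 to 0.32 on the log2 scale, and by 0.20 to 0.34 among CpG-rich promoters. For CCGGAAG the log2 difference was 0.07 to 0.19, and for TATAAA -0.14 to -0.06. For the AP-1 letters it was -0.06 to 0.07 and above 0 in 3 of 10 libraries over all these regions, and 0.01 to 0.14 and above 0 in 10 of 10 libraries among CpG-rich promoters.

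**Figure D4:**
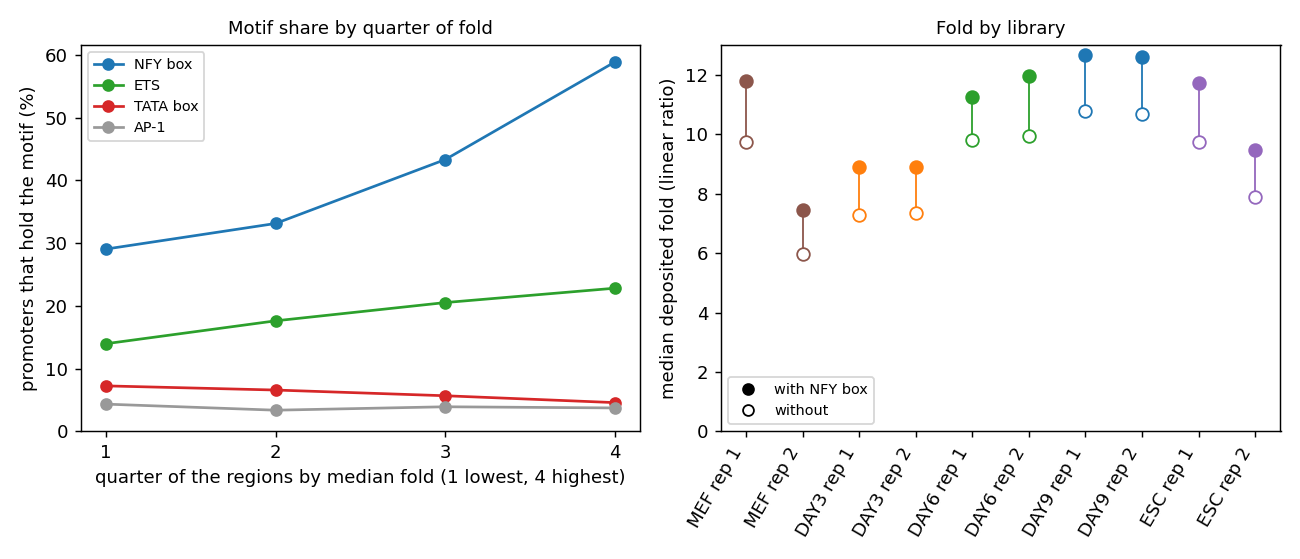
Left, share of promoters (in %) that hold the letters of 4 motifs, in 4 equal groups of regions by median fold, with 1 the lowest. Right, median deposited fold (a linear ratio) in each library for regions with (filled) and without (open) the NFY letters; the filled circle is the higher one in 10 of 10 libraries.

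By chromosome, the regions followed the genes. The autosomes held 9589 regions, 46.4 per 100 protein-coding genes and 3.93 per Mb between the first and the last gene of each, and over the 19 autosomes regions per Mb and genes per Mb had a Pearson's r of 0.94 and a Spearman's rho of 0.95 (a description, since genes enter the rule). Per Mb the densest were chromosomes 11 (6.36), 19 (5.65) and 17 (5.09), and the sparsest were Y (0.0110), X (1.69) and 18 (2.79). Per 100 genes the densest were 8 (52.3), 12 (52.3) and 3 (50.5), and the sparsest Y (0.391), X (29.8) and 7 (36.4). Chromosome 7 carries 417 olfactory and vomeronasal receptor genes, and without such genes it had 45.8. Median width ranged over the autosomes from 1184 bp on chromosome 7 to 1311 bp on chromosome 12, and was 1232 bp on X.

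**Figure D5:**
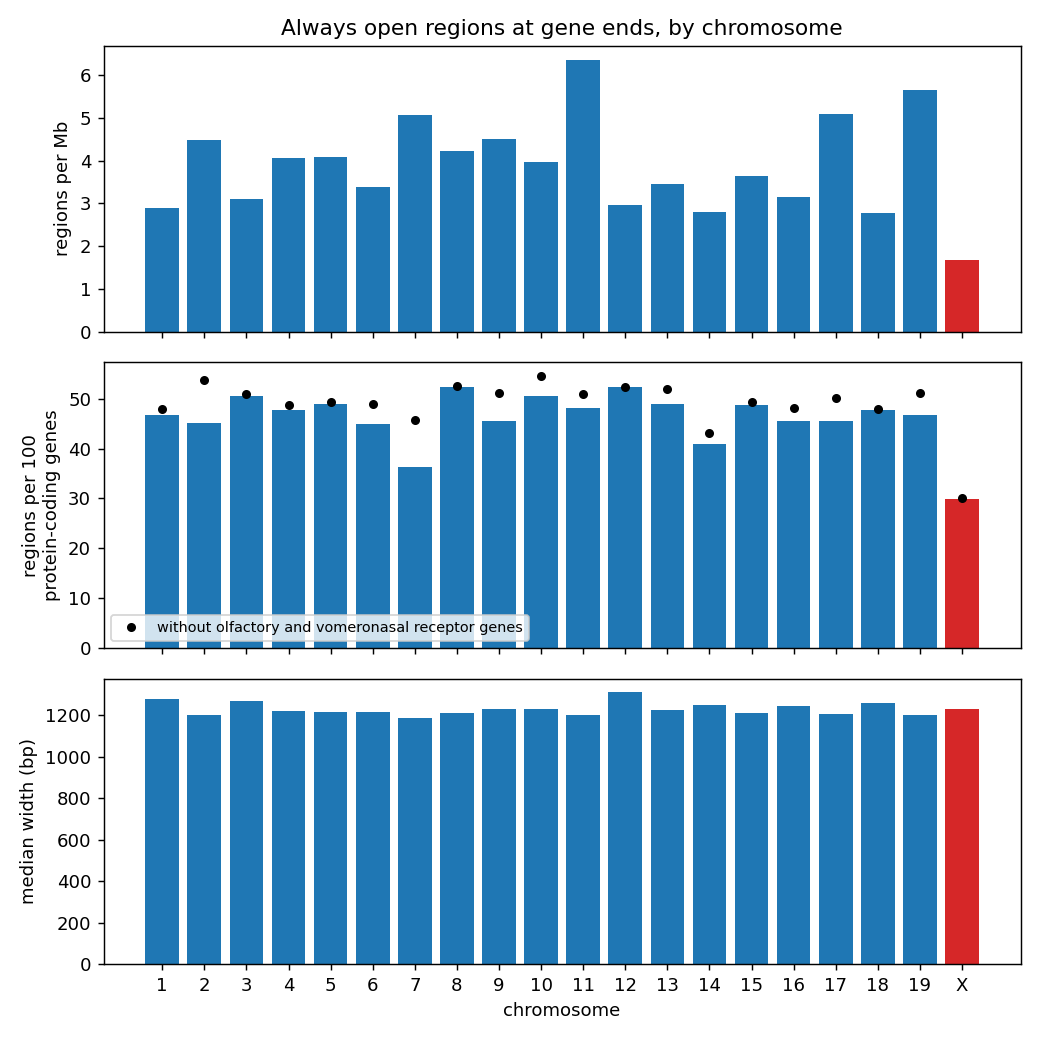
Always open regions at gene ends per Mb (top), per 100 protein-coding genes (middle) and their median width in bp (bottom), for the autosomes (blue) and X (red); dots leave out olfactory and vomeronasal receptor genes. X is the lowest in the upper 2 panels, at 1.69 per Mb and 29.8 per 100 genes, and level with the autosomes in width.

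The X chromosome had few regions for its genes. It held 288 regions that served 312 of 966 genes (32.3%), against 51.8% of autosomal genes. The low number was not particular to these regions. X had 5450 merged regions of any kind, whereas chromosome 3, the nearest autosome in gene number (983), had 12483. The 288 were 5.28% of the merged regions on X, within the autosomal range of 3.47% to 6.82%. The median fold on X was 10.97 and 5.62 in MEF, 7.63 and 7.79 at DAY3, 10.5 and 10.8 at DAY6, 11.5 and 11.7 at DAY9, and 11.2 and 9.29 in ESC, against 10.2 and 6.38, 7.67 and 7.71, 10.2 and 10.6, 11.2 and 11.2, and 10.2 and 8.30 on the autosomes. The log2 ratio of X to autosomes was 0.04 ± 0.106 (SD, n = 8), above 0 in 7 of 8 samples and -0.18 in MEF replicate 2, and its difference from 0 was not detected (exact paired permutation test, two-sided, p = 0.273, adjusted 0.365). It was 0.07 without both MEF libraries (exact p = 0.0313), 0.09 when a peak had to cover 50% of the region (exact p = 0.0234), and -0.29 with the deposited score in place of the fold (exact p = 0.00781). A difference between stages was not detected with all samples (exact permutation test, p = 0.683), but the p was 0.0190 without MEF replicate 1 and 0.0190 without MEF replicate 2 in the same exact test. Pgk1, the X-linked glycolytic kinase, had folds of 14.7 to 22.7 and was above the 96th percentile at every stage. The Y chromosome had 1 region, at Gm52481, 2618 bp wide with folds of 2.12 to 4.86.

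Regions clustered in gene-dense stretches, named here after their values were seen. The densest Mb was on chromosome 11 between 69 and 70 Mb, with 39 regions that served 44 of 63 genes. It includes Trp53 and Wrap53, which share several regions, Polr2a, the initiation factors Eif4a1 and Eif5a, the mitotic kinase Aurkb and the clock gene Per1. Next were chromosome 8 between 70 and 71 Mb with 36 regions, among them Upf1 and Jund, and chromosome 7 between 45 and 46 Mb with 35, among them Rpl13a, Bax and Snrnp70. The longest stretches without a region were 12.6 Mb on chromosome 15 between Drosha and Basp1, which holds 7 protein-coding genes, 12.2 Mb on X between Wdr44 and Dock11, which holds 51, and 9.70 Mb on chromosome 14 between Pcdh20 and Dach1, which holds 3. In all, 39 gaps exceeded 4 Mb.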

How the data were processed

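The members and the gene lists were chosen with earlier results of these data known. The authors deposited 1 peak list per library, called per library and not on pooled replicates. The submitters' processing notes name Bowtie2 2.3.2, MACS2 2.1.1, deepTools 2.3.6 and the build mm10, with no roles. The read depth and the handling of duplicate reads and of the transposase offset are not given in the sources used here. In the authors' lists, 99.9988% of scores equal the −log10 p-value times 10 without its decimals, and the deposited fold is the authors' linear ratio of summit to background. No deposited −log10 p-value was under 5.

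Peaks sharing at least 1 bp were merged, and a list had a region when a peak overlapped it by 1 bp. Protein-coding genes, strands (80% of genes) and promoters are from RefSeq (GRCm38.p6). The fold of a region in a list is the highest among its peaks there, and fold percentile is its rank among the 9878 regions. Noise ratios used summit pileups of at least 40, recovered from fold and −log10 p-value, and pairs under 2 were averaged. Tests were exact sign-flip tests over samples or exact permutations of samples among stages, adjusted over 8 tests by Benjamini-Hochberg. Nothing in the labels says that the 2 libraries of a stage came from separate cultures or animals, so p-values measure the spread between these samples, which may be technical. Same-numbered libraries did not deviate together (correlations -0.043 to 0.055 over 10 stage pairs), so the main tests did not pair libraries by number. These values cannot show whether such libraries shared a preparation. The region rule and the fold test were run on simulated lists, all made from the list of DAY3 replicate 1 by dropping peaks. There, 10064 of 10064 expected regions were found, 0 of 200 removed regions were called, and a planted shift came back as 0.40. Peak edges were the same in all simulated lists, so the merging of unlike peaks was not tested. Regions were named by rules on rank, width, genes served, stage spread and distance; in a list, by name where 5 or fewer genes were served or unserved, otherwise the 3 highest folds; some genes that this rule names are not reported here. Examples with values beyond these were chosen after their values were seen. Python 3.11.15, numpy 2.4.6, pandas 2.3.3 and scipy 1.17.1 were used.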

Additional observations from a re-analysis of the deposited data

How the results depend on the processing

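Alternatives covered the distance (500 and 2500 bp), list length, the highest-scoring 50%, 50% coverage, 9 of 10 lists, score in place of fold, separate counting of 10 libraries, each library left out and, added after seeing the data, peak midpoints, a shared width range and leaving out a stage. The planned summit criterion was not run, because the lists used give no summit position. Apart from leaving out 1 library, 93 of 98 values kept their direction and side of the threshold. The exceptions were the share of the strongest 5000 peaks by stage (93.2% between stages, p = 0.0714 in the exact permutation test) and the X ratio, which was -0.29 with the score, 0.0675 in the highest-scoring 50% (exact p = 0.0469), 0.0854 with 50% coverage and 0.0704 without both MEF libraries. Region counts ran from 6742 to 10754 and genes served from 7849 to 11799.

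With 1 library left out, in the rule and the test, 98 of 100 values kept their side; the exceptions were the X ratio by stage without either MEF library. The ranges were 235 to 246 bp for width, 0.39 to 0.42 for fold at gene ends against away, 59.0% to 86.6% between stages for that ratio, 95.8% to 99.7% for the strongest peaks, 0.59 to 0.62 for starts against far ends, 0.11 to 0.11 for shared against single starts, 0.03 to 0.06 for X, 32.8% to 99.3% for X by stage, 9879 to 10226 regions and 11016 to 11336 genes. With the replicate number as a block, the fold difference was 0.40 and the strongest-peak share 97.9% between stages (exact p = 0.00833), and no call changed. The read depth is unknown, so what it limits could not be measured.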

Other observations

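A region can be absent from the set because RefSeq's outermost start lies elsewhere. Among the family lists, 29 unserved genes had an always open region within 1000 bp of another listed start, among them Rpl19, Rps2, Hnrnpl, Taf1 and Usp7.

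Gm10710 and 4930564D02Rik, both end-only and narrow (397 and 634 bp), had folds that did not follow the course from MEF to ESC. Gm10710 had 10.8 and 10.3 in MEF, 20.1 and 20.8 at DAY3, 13.1 and 16.3 at DAY6, 19.1 and 21.0 at DAY9, and 12.4 and 3.62 in ESC. 4930564D02Rik had 14.6 and 10.7 in MEF, 3.24 to 6.31 at DAY3 to DAY9, and 18.6 and 12.7 in ESC. The 2 ESC libraries of Gm10710 lay far apart from each other.

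Among promoters without any region, 163 (2.84%) had a CpG ratio of 0.6 or more.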
